A study of Rattus norvegicus with 28 samples.

Results

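The genes described here are 10 genes of the Nrf2 antioxidant pathway, measured in whole rat hippocampus after traumatic brain injury (TBI) with and without an antidepressant. They were chosen by name, with earlier results of these data known but by no rule on their measured values: Keap1, Nfe2l2, Hmox1, Gclc, Gclm, Slc7a11, Txnrd1, Srxn1, Nqo1 and Osgin1. Every non-control probe whose RefSeq accession belongs to 1 of these symbols was taken, which gave 12 probes for the 10 genes, out of 15637 genes with such a probe on the array. All rats were adult male Sprague-Dawley animals, and tissue was removed 24 h after surgery. Sham rats had the surgery without the injury (2 rats). TBI rats received a parasagittal fluid percussion injury and no antidepressant (3 rats). The study's methods describe treatment with an antidepressant or with vehicle. TBI+Imipramine, TBI+Prozac and TBI+Zoloft rats had the same injury followed by an injection of the tricyclic imipramine, or of a serotonin reuptake inhibitor, fluoxetine (Prozac) or sertraline (Zoloft) (3 rats each). No uninjured rat received a drug, so each drug was seen only on top of the injury. Each rat gave 1 one-colour Agilent array, and whole hippocampus holds many cell types.

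Nrf2, the product of Nfe2l2, is a transcription factor that switches on genes against oxidants and reactive chemicals. Keap1 holds it in the cytoplasm and sends it for degradation. When oxidants or electrophiles modify cysteines of Keap1, Nrf2 escapes, enters the nucleus, pairs with a small Maf protein and binds antioxidant response elements in its target genes. The pathway is regulated mainly through the amount of Nrf2 protein, which arrays do not measure. In brain, astrocytes and microglia are known as the cells with the strongest response, and haem oxygenase 1 (Hmox1) is known to rise where blood and dying cells release haem.

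The response element has the core TGACNNNGC, and TGAGTCA is the AP-1 site, which resembles part of it. Both were searched on both strands in the promoter windows of RefSeq, which run from 250 bases before to 50 bases after each gene start of assembly GRCr8. These windows are shown because they tell which members carry the letters that Nrf2 or its relatives are known to bind close to their start. The core was found in 12.1% of 33469 windows and the AP-1 site in 4.63%. Of the 9 members with a window, which leaves out Hmox1, 3 held the core and 1 held the AP-1 site. The capitals below mark the match, written 5′ to 3′ on the gene's own strand.
Gclm, chr2:213031947-213031987, + strand, core on the opposite strand, 172 bases before the start: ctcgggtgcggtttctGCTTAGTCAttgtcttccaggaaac
Txnrd1, chr7:22755958-22755998, - strand, core on the opposite strand, 78 bases before the start: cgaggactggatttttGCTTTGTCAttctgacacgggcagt
Nfe2l2, chr3:81028950-81028971, - strand, core on the gene's strand, 38 bases after the start: gactagccatTGACGCCGCctc
Srxn1, chr3:161064734-161064772, + strand, AP-1 site 62 bases before the start: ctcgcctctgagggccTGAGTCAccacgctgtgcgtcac
Srxn1, chr3:161064797-161064823, + strand, a second AP-1 site 5 bases before the start: aaactcacccTGAGTCAgcgacccgac
Txnrd1 has 2 windows for 2 starts, and its second window held neither motif, as did the windows of Gclc, Keap1, Nqo1, Osgin1 and Slc7a11. A match is a string of letters and not a shown binding site. Only these exact strings were searched, and only inside these windows, so a missing match does not show that a gene lacks a response element. The second Srxn1 site, read with the gc after it, differs from the core by a single letter and was not counted as a core.

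Each value is a log2 signal after division by the array's own 75th percentile, taken over its probes above background, and a difference of 1 is a doubling. Levels of different probes are not compared with each other. Of 30367 probes, between 14676 and 18196 were above background per array, lowest on TBI replicate 1. The neuronal markers Snap25, Camk2a, Slc17a7 and Gad1 were above background on 14 of 14 arrays, while Prox1, a marker of dentate granule neurons, was so on 0. A marker below background does not by itself show that these neurons were absent. TBI+Zoloft replicate 3 stood apart, with 95 of 17251 probes higher there than on any other array by more than 1 log2 unit, against 1 to 9 on each other array. On the low side 3 arrays stood apart: 135 probes were lowest by more than 1 log2 unit on Sham replicate 1, 111 on TBI replicate 1 and 85 on TBI+Zoloft replicate 3, against 39 on Sham replicate 2 and 0 to 9 on the rest. Both Sham arrays were alone on 1 slide, read on another day than the rest, so the slide and the injury cannot be told apart in any comparison with Sham. The 3 TBI arrays shared a slide with TBI+Prozac replicate 1, and the other 8 arrays shared the third slide. P-values measure the spread between these rats' arrays.

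Of the 10 genes, 8 gave a measurable signal. Their 8 leading probes, the brightest of each gene, were above background on all 14 arrays, so none of them entered through a single group. The only probe of Gclm, the regulatory subunit of glutamate-cysteine ligase, and the only probe of Osgin1, an oxidative stress-induced growth inhibitor, were not well above background on any array. No difference is given for these genes, nor for a second probe of Slc7a11 that was above background on 0 arrays. A second, dim probe of Txnrd1 was above background on 9 of 14 arrays.

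**Figure D1:**
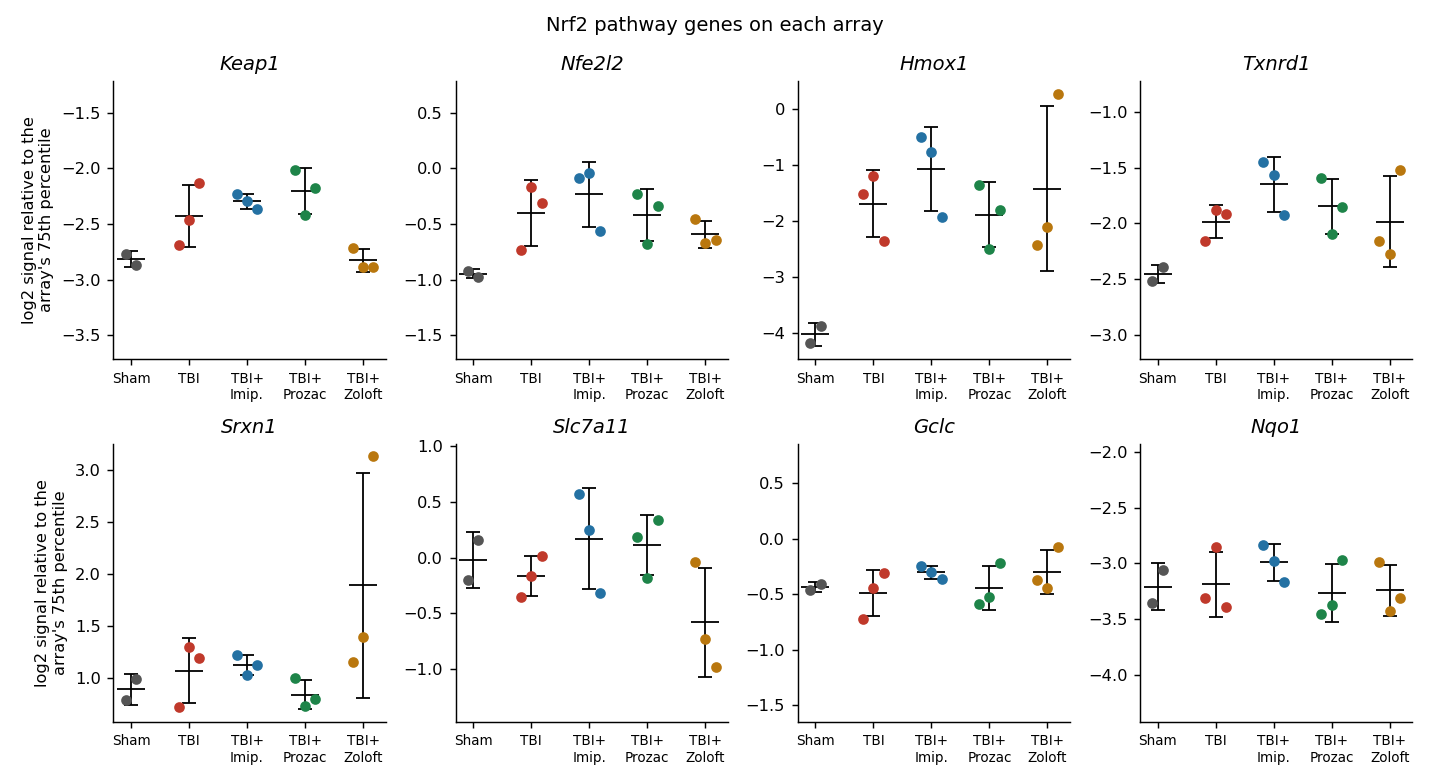
Log2 signal relative to the array's 75th percentile for the leading probe of 8 genes, with 1 point per array, the group mean as a bar and its SD as whiskers. Vertical scales differ between panels. The 12 injured arrays lie above both Sham arrays for Hmox1, Nfe2l2 and Txnrd1, as they do for 12.1% of all probes. For Srxn1, 1 TBI+Zoloft array, replicate 3, stands far above the others.

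Hmox1 was higher after injury than in Sham. It encodes the inducible haem oxygenase, which breaks haem into biliverdin, iron and carbon monoxide. Its log2 values were -4.18 and -3.88 in Sham and -1.52, -1.19 and -2.35 in TBI. The arrays of the 2 groups did not overlap, and the lowest TBI array lay well above the higher Sham array. Of all probes, 20.9% were higher in TBI than in Sham without overlap. The difference of the means, -1.69 ± 0.60 in TBI (SD, n = 3) and -4.03 ± 0.21 in Sham (SD, n = 2), was 2.34 (SE 0.70) or 5.07-fold, with a limma adjusted p of 0.038. By size of rise, Hmox1 stood at rank 185 of 17322 probes. Of the 9 member probes Hmox1 alone passed the threshold of 0.05 in this comparison, where 16.6% of all probes tested passed it, 8.3% of them higher and 8.32% lower. The call depended on single arrays: it passed in 8 of 14 fits that each left out 1 array, with adjusted p between 0.0049 and 0.17 and a difference between 2.09 and 2.67. It was lost without Sham replicate 1, Sham replicate 2, TBI replicate 1, TBI replicate 2, TBI+Imipramine replicate 2 or TBI+Prozac replicate 3. The call was also lost with normexp background correction (1.68, adjusted p 0.055), with no filter on dim probes (adjusted p 0.076) and with replicate number as a block.

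The higher Hmox1 signal was present in every injured group. TBI+Imipramine arrays read -0.50, -0.76 and -1.92, TBI+Prozac arrays -1.36, -2.50 and -1.79, and TBI+Zoloft arrays -2.42, -2.11 and 0.28. All 9 of these arrays lay above both Sham arrays, and the range of each drug group overlapped that of TBI. For 12.1% of all probes every injured array, TBI included, lay above both Sham arrays. Against Sham the difference was 2.97 (SE 0.70, 7.83-fold) with imipramine, 2.15 (4.42-fold) with Prozac and 2.61 (6.12-fold) with Zoloft, with limma adjusted p of 0.010, 0.058 and 0.047. In order of group means Hmox1 was lowest in Sham, then TBI+Prozac, TBI, TBI+Zoloft and TBI+Imipramine, and the 4 injured neighbours in that order overlapped. The group mean of TBI+Zoloft was set largely by replicate 3: without that array the difference from Sham was 1.76 (limma adjusted p 0.063), and the Zoloft call passed in 2 of 14 fits that left out an array, those without TBI+Imipramine replicate 3 or TBI+Zoloft replicate 1. It was lost with normexp correction (1.96, adjusted p 0.067), with no filter (adjusted p 0.097) and with replicate number as a block. The imipramine call passed in 13 of 14, being lost without Sham replicate 1 (adjusted p 0.067). The Prozac difference passed without TBI+Zoloft replicate 3 (adjusted p 0.0093) or without TBI+Zoloft replicate 1 (adjusted p 0.046).

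Some cell type markers also differed from Sham, and others did not. Microglia and macrophages carry Hmox1 in injured brain, and of 11 measured markers of these cells 5 were called higher in TBI than in Sham and 0 lower, 9 in TBI+Imipramine, 7 in TBI+Prozac and 5 in TBI+Zoloft. Of all probes, 8.3%, 19.8%, 11.7% and 4.16% were called higher in these comparisons. Their summed signal, as log2, ran from 2.13 to 2.37 in Sham, 3.14 to 3.24 in TBI, 3.41 to 4.01 in TBI+Imipramine, 3.0 to 3.80 in TBI+Prozac and 2.70 to 3.36 in TBI+Zoloft. The ranges of the injured groups lay above that of Sham. The macrophage scavenger receptor Msr1 was not above background on either Sham array. It was also the 1 marker of these 11 called in TBI+Imipramine against TBI (2.05 higher, limma adjusted p 0.0069), beside 2.85% of all probes. In TBI+Prozac and TBI+Zoloft against TBI 0 of the 11 were called. The microglial marker P2ry12 ran from -2.54 to -1.03 in Sham, a range that the arrays of every injured group overlapped. Of 6 measured blood markers, 0 were called in any comparison with Sham; their summed signal ran from 5.52 to 5.93 in Sham, 5.40 to 5.73 in TBI, 5.34 to 6.35 in TBI+Imipramine, 5.28 to 6.04 in TBI+Prozac and 5.73 to 6.56 in TBI+Zoloft. The ranges of all injured groups overlapped that of Sham, and the highest array was in TBI+Zoloft. Of 8 astrocyte markers 2 were called higher in TBI, of 6 endothelial markers 1, and of 8 measured neuronal markers 1 was called lower. Of 3 measured choroid plexus markers 0 were called, while their summed signal differed between arrays of every group, from -1.96 to 6.72 over all arrays. In order of replicate it read -0.60 and 4.87 in Sham and -0.48, 0.98 and 4.84 in TBI. The drug arrays read 6.66, 6.72 and 0.91 in TBI+Imipramine, 6.46, -1.96 and -1.95 in TBI+Prozac and 6.12, 6.67 and 0.91 in TBI+Zoloft. In TBI+Imipramine Hmox1 was also higher on replicates 1 and 2 than on replicate 3, whereas in TBI+Zoloft it was highest on replicate 3. Whether more of these cells, or more Hmox1 RNA per cell, gave the signal cannot be told apart in bulk tissue. The part of the marker shifts in the differences of Hmox1 or of the other members was not tested.

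The transcription factor and its sensor differed from Sham by less than Hmox1 did. Nfe2l2 read -0.92 and -0.97 in Sham and -0.74, -0.16 and -0.31 in TBI. The drug arrays ran from -0.68 to -0.05, and 12 of 12 injured arrays were above both Sham arrays, as for 12.1% of all probes. The TBI difference was 0.54 (SE 0.21, limma adjusted p 0.097), and TBI+Imipramine was the only group past the threshold against Sham (0.71, SE 0.21, limma adjusted p 0.027). Nfe2l2 in TBI passed where arrays were scaled by quantiles, by the 75th percentile of all probes or as in the deposited series table (0.52 to 0.53, adjusted p 0.017 to 0.018), and without TBI replicate 1 (0.71, adjusted p 0.033). The last 2 of these scalings are nearly the same, so they are not separate checks. The imipramine call was lost without either Sham array or without TBI+Imipramine replicate 1 or 2 (adjusted p up to 0.13).

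Keap1 read -2.77 and -2.87 in Sham, -2.69, -2.47 and -2.13 in TBI, -2.24, -2.29 and -2.36 in TBI+Imipramine and -2.01, -2.42 and -2.18 in TBI+Prozac. The TBI+Zoloft arrays, at -2.71, -2.89 and -2.89, sat at the level of Sham, while the arrays of the 3 other injured groups were all above Sham. Of all probes, 20.9% in TBI, 42% in TBI+Imipramine and 36.8% in TBI+Prozac were higher than Sham without overlap. Against Sham, limma gave 0.39 (adjusted p 0.14, and 0.035 to 0.038 under the 3 other scalings just named) in TBI, 0.52 (adjusted p 0.044) in TBI+Imipramine, 0.61 (adjusted p 0.032) in TBI+Prozac and -0.01 (adjusted p 0.98) in TBI+Zoloft, each with an SE of 0.17. All 3 TBI+Zoloft arrays were below all 3 TBI arrays, by 0.40 in the mean (limma adjusted p 0.22), in a comparison in which 6.77% of all probes were lower without overlap. That difference passed under the same 3 scalings (adjusted p 0.042 to 0.043). Keap1 had the smallest p of the members in the F test among the 3 drugs (limma adjusted p 0.064), and it passed with the probes limited to those above background on all arrays. The imipramine call for Keap1 was lost under the same 3 scalings (0.26 to 0.27, adjusted p 0.089 to 0.095) and in 9 of 14 fits that left out an array, passing only without TBI+Zoloft replicate 3, TBI replicate 1 or 3, or TBI+Prozac replicate 1 or 2. The Prozac call was lost without either Sham array or without TBI+Prozac replicate 1 or 3 (adjusted p up to 0.17), and with normexp correction (0.40, adjusted p 0.11) or no filter (adjusted p 0.086).

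Txnrd1, the cytosolic thioredoxin reductase that keeps thioredoxin reduced with NADPH, was highest in TBI+Imipramine, as Hmox1 was, but its other injured groups stood in another order. Its leading probe read -2.52 and -2.40 in Sham, -2.16, -1.88 and -1.92 in TBI, -1.45, -1.57 and -1.93 in TBI+Imipramine, -1.59, -2.09 and -1.85 in TBI+Prozac and -2.16, -2.28 and -1.52 in TBI+Zoloft. The 12 injured arrays were all above both Sham arrays, as for 12.1% of all probes. The difference from Sham was 0.47 (SE 0.23, limma adjusted p 0.19) in TBI and 0.81 (SE 0.23, limma adjusted p 0.025) in TBI+Imipramine, the only group past the threshold. Under the 3 other scalings the imipramine difference was 0.54 to 0.56 (adjusted p 0.051 to 0.058), and the call was lost without either Sham array or without TBI+Imipramine replicate 1 or 2 (adjusted p up to 0.13). The dim second probe also read higher in all 4 injured groups and passed in none. In Sham it was not well above background. Its measured TBI+Imipramine difference was 0.66 (limma adjusted p 0.096). By the lowest signal above background, TBI+Imipramine was at least 1.54-fold higher, a value that was not tested.

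Srxn1 encodes sulfiredoxin, which reactivates overoxidised peroxiredoxins. It read 0.79 and 0.99 in Sham, 0.72, 1.30 and 1.2 in TBI, 1.22, 1.03 and 1.13 in TBI+Imipramine, 1.0, 0.73 and 0.80 in TBI+Prozac and 1.15, 1.39 and 3.13 in TBI+Zoloft. The last array, TBI+Zoloft replicate 3, was 1.74 above the next highest. The group difference of TBI+Zoloft from Sham was 1.0 (SE 0.43, limma adjusted p 0.20), and without that array it was 0.38 (adjusted p 0.30). The same rat had the highest Hmox1 and Gclc of the 14, and the lowest Slc7a11 at -0.98. The array's place among the rest is the one given above, and no cause was tested.

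The measurable members of glutathione synthesis and quinone reduction, Slc7a11, Gclc and Nqo1, gave no calls, while Gclm could not be read. Slc7a11, the cystine carrier that feeds glutathione synthesis, read -0.20 and 0.16 in Sham and -0.35, -0.16 and 0.01 in TBI. It read 0.58, 0.25 and -0.31 in TBI+Imipramine and 0.19, -0.19 and 0.34 in TBI+Prozac. TBI+Zoloft arrays read -0.04, -0.73 and -0.98, for a difference from Sham of -0.56 (SE 0.30, limma adjusted p 0.30). Gclc, the catalytic subunit of glutamate-cysteine ligase, stayed between -0.72 and -0.08 on all 14 arrays, with -0.47 and -0.40 in Sham. Its TBI+Imipramine arrays were above both Sham arrays, as for 42% of all probes, by 0.13 in the mean (limma adjusted p 0.60). Nqo1, the NADPH quinone reductase often used as a readout of Nrf2, ran from -3.45 to -2.83, with -3.36 and -3.06 in Sham. For Gclc and Nqo1 the Sham values lay inside the range of the injured arrays.

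**Figure D2:**
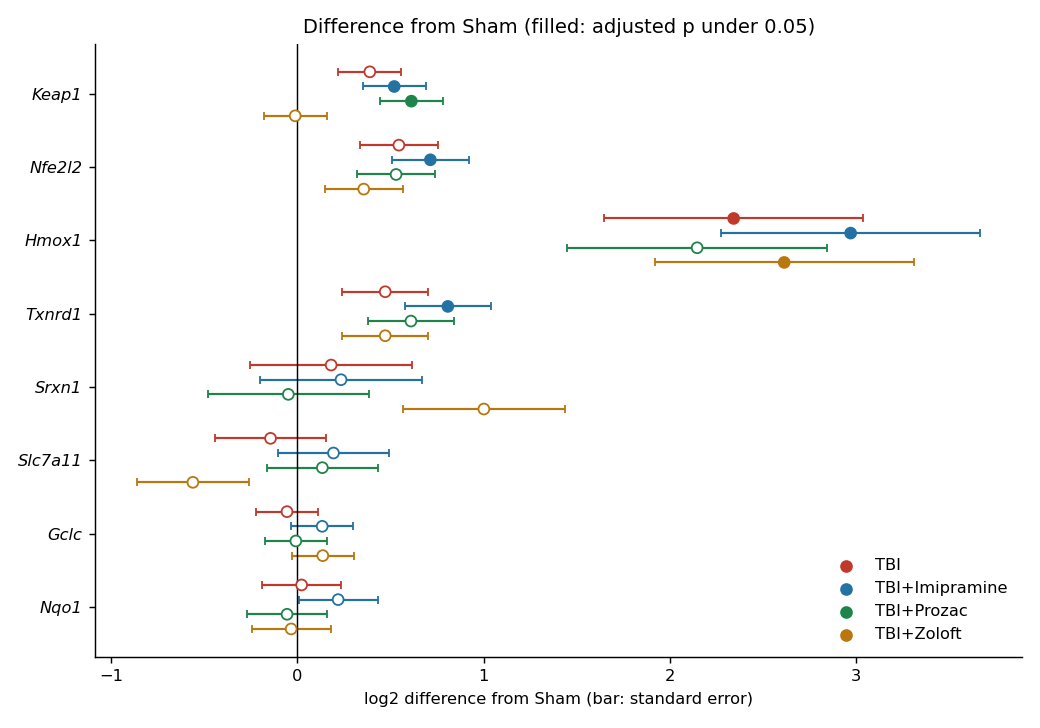
Log2 difference from Sham of the leading probe of 8 genes in the 4 injured groups, with the standard error of the limma fit as bars and filled points for an adjusted p under 0.05. Hmox1 lies between 2.15 and 2.97 in the 4 groups, while the next largest difference is 1.0, for Srxn1 in TBI+Zoloft.

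Read over the members, the comparisons with Sham differed in their counts. Called higher were 1 of 9 probes in TBI, 4 in TBI+Imipramine (Hmox1, Txnrd1, Nfe2l2 and Keap1), 1 in TBI+Prozac (Keap1) and 1 in TBI+Zoloft (Hmox1), and 0 were called lower. Over all probes, 23.4% were called in TBI+Imipramine, 14.9% in TBI+Prozac and 5.95% in TBI+Zoloft, with 19.8%, 11.7% and 4.16% higher and 3.6%, 3.16% and 1.8% lower. Of the 8 leading probes, 4 were higher than Sham without overlap in TBI, 6 in TBI+Imipramine, 4 in TBI+Prozac and 4 in TBI+Zoloft, against 20.9%, 42%, 36.8% and 19.9% of all probes. The median difference of the 8 was 0.28, 0.38, 0.33 and 0.25, beside 0.00, 0.18, 0.14 and 0.00 over all probes. With imipramine and Prozac the median of all probes thus lay above 0, and of the 8 differences 7 and 4 exceeded it. That shift depended on the scaling: under the 3 other scalings the median of all probes lay between -0.05 and -0.07 in TBI+Imipramine and between -0.02 and -0.05 in TBI+Prozac, and the calls over all probes in TBI+Imipramine turned from 3423 higher and 623 lower to 2414 to 2544 higher and 2664 to 2823 lower. In TBI+Prozac 2031 higher and 548 lower became 1514 to 1683 and 1577 to 1972. Of the members, 2 in place of 4 were then called in TBI+Imipramine, Hmox1 and Nfe2l2. These comparisons share the 2 Sham arrays. Over all 12 injured arrays, Hmox1, Nfe2l2 and Txnrd1 were above both Sham arrays, as were 12.1% of all probes. When the 4 injured groups were averaged against Sham, a comparison added after the values were seen, Hmox1 (2.52, adjusted p 0.010), Txnrd1 (0.59, adjusted p 0.049) and Nfe2l2 (0.54, adjusted p 0.047) passed in limma, with 20.4% of all probes called and 14.3% called higher (2473 higher and 1066 lower, and 2310 to 2460 and 2647 to 2773 under the 3 other scalings). In that comparison Hmox1 was lost without either Sham array (adjusted p 0.10 and 0.074), Txnrd1 in 8 of 14 and Nfe2l2 in 11 of 14 fits that left out an array. Both passed without TBI replicate 1, TBI+Imipramine replicate 3 or TBI+Prozac replicate 2, and Txnrd1 also without any of the TBI+Zoloft arrays. With normexp correction (adjusted p 0.071 and 0.082) and with no filter (0.11 each) neither Nfe2l2 nor Txnrd1 passed, and Txnrd1 also missed the threshold under the 3 other scalings (adjusted p 0.055 to 0.062).

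No member passed the threshold between an antidepressant group and untreated injury. In limma 0 of 9 member probes were called in TBI+Imipramine, TBI+Prozac or TBI+Zoloft against TBI, where 2.85%, 0.00577% and 1.38% of all probes were. At an unadjusted p under 0.05 the counts were 0, 0 and 1, the last being Keap1. Under the 3 other scalings Keap1 was called in the Zoloft comparison, as given above, where the 201 higher and 38 lower calls over all probes became 470 to 517 and 303 to 335. The methods' t-test, at its own unadjusted p and fold limits, also called 0 in each. With imipramine 8 of 8 differences were above 0, from 0.05 (Srxn1) to 0.63 (Hmox1, SE 0.62, limma adjusted p 0.59), but only 3 exceeded the median of all probes, 0.20. Under the 3 other scalings that median lay between -0.01 and -0.02. With Prozac they ran from -0.23 (Srxn1) to 0.28 (Slc7a11) around a median of 0.02, beside 0.15 over all probes. With Zoloft they ran from -0.42 (Slc7a11, SE 0.27) to 0.82 (Srxn1, SE 0.39, limma adjusted p 0.35), and Srxn1 fell to 0.20 without TBI+Zoloft replicate 3. These comparisons share the 3 TBI arrays.

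**Figure D3:**
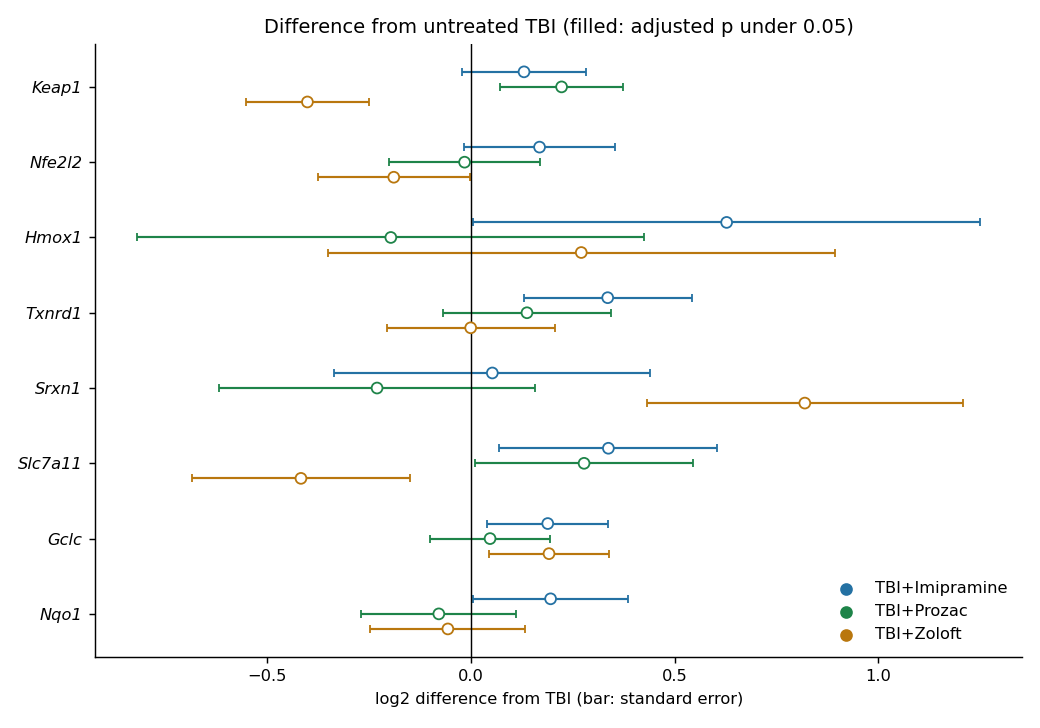
Log2 difference from untreated TBI of the same 8 probes in the 3 drug groups, with standard errors of the limma fit as bars. No point is filled, since no adjusted p was under 0.05, and differences run from -0.42 to 0.82.

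For Hmox1 the drug differences from TBI were 0.63 with imipramine, -0.20 with Prozac and 0.27 with Zoloft (limma adjusted p 0.59, 0.94 and 0.89), each with an SE of 0.62. With 3 arrays a group, differences of this size were not detectable beyond the spread between rats. TBI+Prozac replicate 1, the only drug array on the slide of the TBI arrays, read 0.33 above their mean. With the slide as a term over the 12 injured arrays the differences were 1.42, 0.33 and 1.06, none past the threshold in limma (adjusted p 0.86 to 1.0), and the Prozac difference changed sign. The Zoloft difference was -0.58 without TBI+Zoloft replicate 3.
Among the 3 drugs themselves, limma's F test called 0 of 9 member probes, with 3.18% of all probes called. Keap1, Slc7a11 and Srxn1 had an unadjusted p under 0.05 (adjusted p 0.064, 0.17 and 0.22), and within the slide that holds 8 drug arrays 0 were called.

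Across the 12 injured rats, the arrays with more Hmox1 also had more Txnrd1. Pearson's r was 0.80 (permutation p 0.0014, adjusted over 8 relations 0.011) and Spearman's rho was 0.81 (permutation p 0.0020, adjusted 0.016). Leaving out TBI+Imipramine replicate 1 and TBI+Zoloft replicate 3, the arrays farthest from the Hmox1 median, gave r of 0.69. Within the slide that holds 8 of these arrays, r was 0.91 (exact permutation p 0.0028, adjusted 0.022). All permutations ran over the arrays without regard to group, so differences between groups enter each r and its p. Hmox1 and Txnrd1 both had their highest group mean in TBI+Imipramine. The relations were not tested within groups. The relation of Hmox1 with Srxn1 (r 0.65, permutation p 0.031, adjusted 0.12; rho 0.33) rested on these arrays, since r was -0.02 without them. Gclc gave r of 0.47 over the 12 arrays (permutation p 0.13, adjusted 0.26; rho 0.43), -0.07 without the same 2 arrays and 0.84 on the slide with 8 arrays (exact permutation p 0.0072, adjusted 0.029). With the mean of the microglia and macrophage markers, Hmox1 gave r of 0.48 and rho of 0.68 (permutation p 0.11 and 0.019, adjusted 0.26 and 0.074), and r of 0.72 without the 2 arrays. Nfe2l2 gave r of 0.30 (permutation p 0.34, adjusted 0.51; rho 0.48, adjusted 0.27), and r of 0.62 without the 2 arrays. Nqo1 gave r of 0.28 (permutation p 0.39, adjusted 0.51; rho 0.43, adjusted 0.27), and r of 0.39 without them. For Slc7a11 and Keap1 r was -0.08 and -0.11 and rho 0.15 and 0.01 (permutation, adjusted p 0.75 to 0.99), and r was 0.34 and 0.25 without the 2 arrays.

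**Figure D4:**
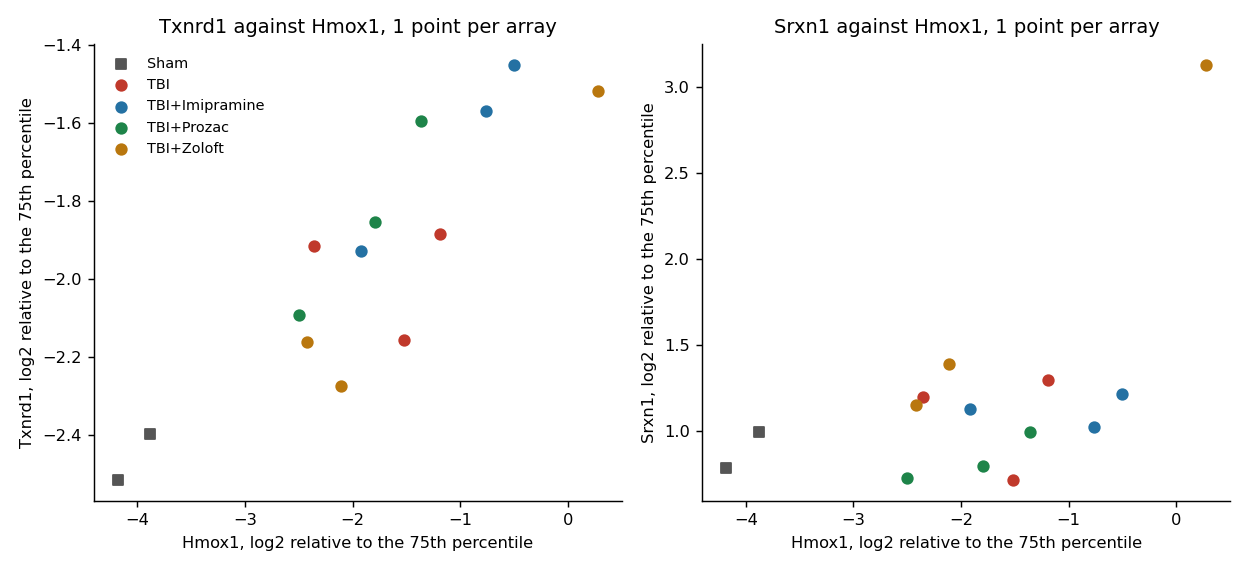
Txnrd1 (left) and Srxn1 (right) against Hmox1, as log2 relative to the array's 75th percentile, with 1 point per array coloured by group and Sham as squares. Txnrd1 rises with Hmox1 over the 12 injured arrays (r 0.80), while for Srxn1 a single TBI+Zoloft array at 3.13 stands apart and r is -0.02 without it and TBI+Imipramine replicate 1.

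The wider antioxidant system was read from 7 lists of related genes, of which 74 genes were measured. In TBI against Sham 10 of these were called higher (13.5%) and 3 lower, beside 8.3% and 8.32% of all probes, and each list's count below is read against the same shares. Among Nrf2 regulators and partners 1 of 10 measured genes was called higher in TBI than in Sham and 0 lower. This was Maff, a small Maf protein that pairs with Nrf2 or its relatives. Its probe was not well above background in Sham and was so on 2 of 3 TBI arrays. The measured difference was 2.51 (limma adjusted p 0.011), and it uses those dim values. With Sham raised to the lowest signal above background, TBI was 1.70-fold higher. That value still includes TBI replicate 1, which was not well above background, so it is not a lower limit. With normexp correction the Maff difference was 0.27 (adjusted p 0.44). In the glutathione list 3 of 15 were higher and 0 lower, led by Mgst1, a membrane glutathione transferase (1.63, SE 0.49, limma adjusted p 0.040). The other 2, named after their values were seen, were Slc3a2, the heavy chain that carries Slc7a11 to the membrane (0.95, adjusted p 0.0064), and the glutathione peroxidase Gpx1 (0.67, adjusted p 0.040). Slc3a2 was thus called where its partner Slc7a11 differed by -0.14 (adjusted p 0.79).

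Of 14 thioredoxin and peroxiredoxin genes 2 were higher and 1 lower in TBI. Prdx1, a peroxidase that Srxn1 repairs, rose by 0.65 (SE 0.18, limma adjusted p 0.027), and Txn2, mitochondrial thioredoxin, was the second, named after its value was seen. Txnip, which binds and inhibits thioredoxin, fell by 1.56 (SE 0.37, limma adjusted p 0.014), with its probe well above background on 1 of 3 TBI arrays. On TBI+Zoloft replicate 3, where Srxn1 was highest, Prdx1 read 1.64, the lowest of the 12 injured arrays and inside the Sham range of 1.52 to 1.67. For haem and iron 1 of 10 was higher and 0 lower: Blvra, biliverdin reductase, the step after haem oxygenase, rose by 0.64 (SE 0.17, limma adjusted p 0.026), while its TBI+Zoloft arrays, at -2.72, -2.94 and -2.94, read like Sham at -2.71 and -2.94. Of 7 NADPH-producing enzymes 0 were called in TBI, and 0 were called lower in TBI+Imipramine, where 4 were higher, beside 19.8% of all probes.

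Among 11 genes of conjugation and export 1 was higher and 2 were lower in TBI. Ugt1a6, a glucuronosyltransferase, rose by 0.81 (SE 0.20, limma adjusted p 0.017). Aox1, an aldehyde oxidase, fell by 2.74 (SE 0.53, limma adjusted p 0.0051), from -2.08 and -1.85 in Sham to -5.64, -3.55 and -4.92 in TBI. The first of these TBI values was not well above background. The second that fell, named after its value was seen, was the sulfotransferase Sult1a1 (-1.11, adjusted p 0.049). Of 7 superoxide, catalase and metallothionein genes 2 were higher and 0 lower: Mt1, a zinc-binding metallothionein, rose by 1.75 (SE 0.53, limma adjusted p 0.042), and Mt2A was the second (1.48, adjusted p 0.013). Mt1, like Srxn1 and Hmox1, was highest on TBI+Zoloft replicate 3, at 4.87. In none of the 7 lists was a gene called in any drug group against TBI, and at most 2 in either direction were under an alternative with all arrays. Against Sham, TBI+Imipramine had 23 of the 74 genes called higher (31.1%, beside 19.8% of all probes) and 0 lower; under the 3 other scalings these were 16 to 19 higher and 6 to 8 lower. The list calls in TBI leaned on single arrays. Aox1 passed in 14 of 14 fits that left out an array, Slc3a2 and Txnip in 13, Maff, Ugt1a6 and Mt2A in 12, Prdx1 in 11, Txn2 and Blvra in 10, Gpx1 and Mt1 in 7, Mgst1 in 6 and Sult1a1 in 4. The number called higher in TBI fell from 10 to 1 without either Sham array and to 3 without TBI replicate 2, and the number called lower was 5 without TBI replicate 3. The 23 called higher in TBI+Imipramine fell to 7 without Sham replicate 1, 10 without Sham replicate 2 and 11 or 12 without TBI+Imipramine replicate 2 or 1.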

How the data were processed

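Hippocampal RNA of 14 rats was hybridised to 14 one-colour Agilent rat gene expression arrays; the study's miRNA arrays were not used. Per the file headers, the deposited scanner files hold intensity per spot on a linear scale, background-subtracted with spatial detrending by Agilent Feature Extraction 11.5.1.1, with flags for outliers and for signal well above background. The deposited series table holds intensities that the authors divided by 1 constant per array, given in the study's methods as the 75th percentile of probes above background. In the files that constant lay within -0.02 to 0.00 log2 units of the 75th percentile of all probes and -1.89 to -1.39 from that of probes above background, so the table's scaling is nearly that of the alternative with all probes. Array number limits the precision.

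Signals were averaged over spots without an outlier flag and divided by the 75th percentile of the array's probes above background (more than 0.5 of a probe's spots), and log2 was taken. Of 30367 non-control probes, 17322 were above background on all arrays of at least 1 group and were kept. Groups came from the sample titles. Group means of the 14 arrays were fitted in 1 limma model (limma 3.58.1, R 4.3.3), 2-sided tests adjusted by Benjamini-Hochberg over all kept probes and a threshold of 0.05. An F test compared the 3 drugs. Correlations were tested by permutation (scipy 1.17.1). The fit was tested on simulated data.

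Probes were named through their accessions in RefSeq (GRCr8), which gave 1 symbol for 18643 probes. The member genes and all gene and marker lists were chosen with earlier results of these data known. A gene's leading probe had the highest mean over all arrays. All members are named; of each pathway list, the called genes with the largest rise and fall in TBI against Sham are named, and others only where stated.

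Alternatives were quantile scaling, the 75th percentile of all probes, the deposited series table, normexp background correction (offset 50, on the median spot signal because the files hold no mean signal), no filter, probes above background on all arrays, flagged spots kept, blocks for replicate number and slide, the mean over a gene's kept probes, the t-test of the methods (fold change above 1.2) and leaving out each array. Fits within a slide, fits over the 12 injured arrays with no slide term, the average of the 4 injured groups against Sham and the alternatives for the pathway lists were added after the data were seen.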

Additional observations from a re-analysis of the deposited data

How the results depend on the processing

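Counts of member probes past the threshold moved with the processing, and the cause was not tested. Against Sham, TBI had 1 call, and 3 under quantile scaling, the 75th percentile of all probes and the deposited series table, 0 with normexp correction, with no filter and with the replicate block, and 2 and 0 by the methods' t-test before and after Benjamini-Hochberg adjustment; leaving out 1 array gave 0 to 2. TBI+Imipramine had 4, and 2 under the 3 other scalings and the replicate block, 1 with no filter and 0 by the adjusted t-test; leaving out 1 array gave 0 to 4. TBI+Prozac had 1, and 0 with normexp, no filter, the replicate block and the adjusted t-test, 2 with the slide as a random block or with probes limited to those above background on every array, and 3 by the unadjusted t-test; leaving out 1 array gave 0 to 3. TBI+Zoloft had 1, and 0 with normexp, no filter, the replicate block and the adjusted t-test; leaving out 1 array gave 0 to 1. The 4 injured groups against Sham had 3, and 1 with normexp, no filter or the replicate block; leaving out 1 array gave 0 to 4. Against TBI, calls were 0 except 1 for Zoloft under the 3 other scalings, and leaving out 1 array gave 0 to 0 for each drug. The F test among drugs called 0, and 1 with that same limit on probes; leaving out 1 array gave 0 to 1. Pathway genes called higher in TBI numbered 10, and 16 under quantile scaling, 4 with no filter, 6 with the replicate block and 0 by the adjusted t-test, with 1 to 13 on leaving out 1 array. In TBI+Imipramine they numbered 23, and 12 with no filter and 4 by the adjusted t-test, with 7 to 26 on leaving out 1 array. The Hmox1 differences from TBI that changed sign were Prozac, -0.20 against 0.33 with the slide as a fixed block and within the slide of the TBI arrays (-0.53 to 0.11 on leaving out 1 array), and Zoloft, 0.27 against -0.58 to 0.77 on leaving out 1 array. Of 34 other member differences, each under 0.3 in size, 22 changed sign under at least 1 alternative and 0 passed the threshold. Replicate numbers did not pair the arrays: arrays sharing a number had a mean correlation of deviations of -0.01 over 26 pairs, those with different numbers 0.01 over 52, and 3 of 14 arrays correlated best with their own number. The consensus correlation within a slide was -0.06, with the Sham slide not separable from Sham. Having 2 Sham arrays limits the precision of every comparison with Sham, and Gclm and Osgin1 gave no signal well above background.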
